A study of Mus musculus with 4 samples.

Results

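The endocannabinoid receptor *Cnr1* and 7 enzymes that make or break down endocannabinoids were followed in single nuclei of mouse hippocampus. The genes were taken by symbol from the deposited gene list. These were *Cnr1*, *Dagla*, *Daglb*, *Napepld*, *Mgll*, *Faah*, *Abhd6* and *Abhd12*, and all 8 were found once among 56748 genes. Endocannabinoids are lipid messengers that are made on demand in the postsynaptic membrane and travel back to the presynaptic terminal. There they bind the cannabinoid receptor CB1, a G protein-coupled receptor that lowers transmitter release. One of them, 2-arachidonoylglycerol, is made from diacylglycerol by diacylglycerol lipases and hydrolysed by monoacylglycerol lipase and related hydrolases, and the other, anandamide, is hydrolysed by fatty acid amide hydrolase. In hippocampus the best known site of CB1 is the terminal of cholecystokinin (CCK) basket cells, a type of inhibitory interneuron.

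Nuclei came from male mice and were counted in 8 pools of 3 mice each, 4 control and 4 stress. Stress was repeated social defeat (RSD), in which an aggressor shared the cage for 2 h on each of 6 nights, and tissue for nuclei was taken 14 h later. In the diet experiment, C57BL/6 mice aged 5 to 7 weeks had vehicle chow (Con-Veh, Stress-Veh) or chow with PLX5622 at 1200 mg/kg (Con-PLX, Stress-PLX) for 7 days before RSD. PLX5622 blocks the receptor for colony-stimulating factor and depletes microglia. In the genotype experiment, Cre expressed from *Vglut2* (*Slc17a6*) removed floxed *Il1r1*, the receptor for interleukin-1, from glutamatergic neurons (Con-nIL-1R1-/-, Stress-nIL-1R1-/-), and Cre-negative mice were the IL-1R1+/+ groups (Con-IL-1R1+/+, Stress-IL-1R1+/+). Each condition was thus 1 pool, and each control pool was paired with the stress pool of the same diet or genotype, giving 4 pairs. Below, values for 4 pools are given in the order vehicle, PLX5622, IL-1R1+/+ and nIL-1R1-/-.

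In all, 56834 nuclei were kept and no cell barcode was shared between pools. Median UMIs (unique transcripts counted) per nucleus ran from 598 in Con-PLX to 5012 in Con-nIL-1R1-/-. The PLX5622 pools held 13 and 15 microglia-like nuclei against 152 to 200 in the other 6 pools, so values for microglia-like nuclei are given without them where this is said. In DG-like nuclei, *Il1r1* was at 59.9 and 30.5 CPM in Con-IL-1R1+/+ and Stress-IL-1R1+/+, and at 11.4 and 8.78 CPM in Con-nIL-1R1-/- and Stress-nIL-1R1-/-. CPM is the number of UMIs of a gene per 1000000 UMIs of that class in that pool. A class is a set of clusters that was named by marker genes, hence the ending "-like". Neither the 8 genes nor 36 other genes of the pathway were used for clustering. Dentate gyrus (DG) granule cells, CA1 and CA2/3 pyramidal cells, 3 kinds of inhibitory interneurons (INH), oligodendrocytes, their precursors, astrocytes and microglia gave 10 classes that were compared between conditions. Levels are also given for 3 further neuron classes, 13 in all. The nuclei of CA1-like came from different clusters in different pools: 1 cluster held 5032 of 8819 nuclei, another held 3088 of which 1435 were from Stress-PLX and 1084 from Stress-Veh, and 655 of the 699 nuclei of the smallest were from Con-PLX.

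*Cnr1* encodes CB1 and lies on chromosome 4 (GRCm39, 33922982 to 33948836, plus strand). It was the member with the sharpest pattern across classes. In INH Vip/Cck-like nuclei, the class of interneurons named by *Vip*, *Cck*, *Sncg* and 5 other markers, its level was 466 ± 83.2 CPM (SD, n = 8 pools). The 4 control pools were at 514, 453, 611 and 454 CPM and the 4 stress pools at 354, 367, 515 and 456 CPM. The highest pool of any other class was at 141 CPM. The next class was INH neurogliaform-like with 59.8 ± 35.2 CPM, which gives a ratio of 7.78 between means. The difference was 3.09 on the log2(CPM + 1) scale (SD 0.72) and was in the same direction in 8 of 8 pools (exact permutation test by sign flips, two-sided, p = 0.0078, adjusted p = 0.15 over 96 neighbouring pairs of classes). The p of 0.0078 is the smallest that 8 pools can give. INH Lhx6-like interneurons, a class with *Sst* and *Pvalb* among its markers, had 28.2 ± 11.4 CPM, close to the pyramidal classes at 36.9 ± 12.1 in CA1-like and 33.9 ± 9.89 in CA2/3-like. DG-like granule cells had 9.11 ± 3.75 CPM, near the 8.15 ± 8.08 CPM of oligodendrocyte-like nuclei.

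**Figure D1:**
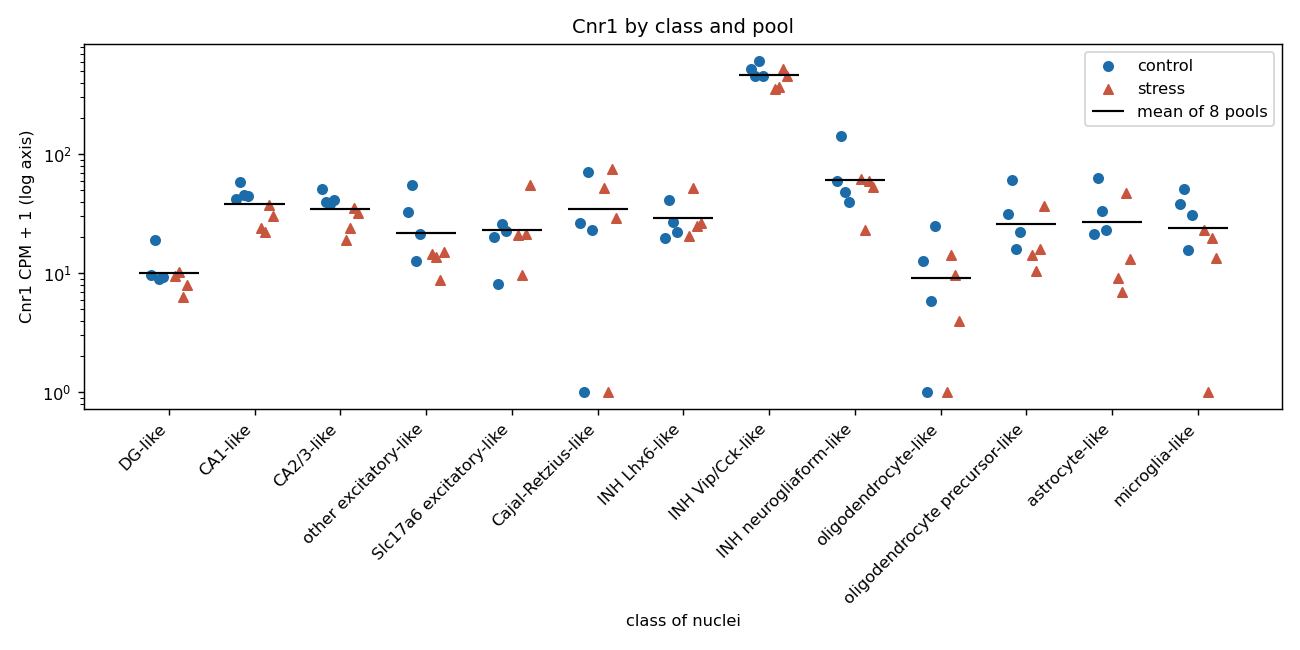
*Cnr1* level by class. The y axis is CPM + 1 on a log axis and the x axis the 13 classes. Circles are the 4 control pools, triangles the 4 stress pools, and the line is the mean of 8 pools. All 8 pools of INH Vip/Cck-like nuclei lie between 354 and 611 CPM, above every pool of every other class.

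The INH Vip/Cck-like class made up 3.62% of the nuclei of the 10 classes and held 45.4% of their *Cnr1* UMIs, with a range over pools of 29.3 to 61.2%. CA2/3-like nuclei held 20.4% and CA1-like nuclei 16.9%. These shares leave out nuclei outside the 10 classes: INH Vip/Cck-like nuclei held 2554 *Cnr1* UMIs, and 9441 were counted in all. A *Cnr1* UMI was found in 641 of 1260 INH Vip/Cck-like nuclei (50.9%, exact 95% interval 48.1 to 53.7%), and those nuclei carried 3.98 UMIs on average. In oligodendrocyte-like nuclei, set beside it as a comparison for free RNA, the share was 1.13% (0.715 to 1.69%). The summed level of neuron markers, given below, was lower in oligodendrocyte-like nuclei than in the other glial classes. Their share is thus not an upper limit for free RNA. Each nucleus was also thinned to 500 UMIs, and nuclei with fewer were left out. The shares were then 19.0% of 1145 INH Vip/Cck-like nuclei, 1.77% of CA1-like, 0.581% of DG-like and 0.311% of oligodendrocyte-like nuclei. These intervals hold counting error only. Within the class, *Cnr1* was not even. A cluster of 711 nuclei with 38.2 CPM of *Cck* and 9.83 CPM of *Vip* had 614 CPM of *Cnr1*, and a cluster of 549 nuclei with 273 CPM of *Vip* and 4.31 CPM of *Cck* had 188 CPM. Of 2 neurogliaform-like clusters, the smaller (234 nuclei) had 138 CPM and the larger (539 nuclei) 19.1 CPM. INH Lhx6-like clusters were uneven too. Those of 633 and 560 nuclei had 56.6 and 54.1 CPM, and the others 5.80 to 16.5 CPM. Outside the named classes, 3 INH clusters that could not be named, of 564, 533 and 98 nuclei, had 107, 117 and 191 CPM. These cluster values are given with no test.

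Of the enzymes that make endocannabinoids, *Dagla* encodes the diacylglycerol lipase that makes most 2-arachidonoylglycerol in adult brain. It lies on chromosome 19 (10222629 to 10282320, minus strand). *Dagla* was highest in the 3 principal neuron classes, with 319 ± 46.5 CPM in CA2/3-like, 289 ± 35.3 in DG-like and 251 ± 48.8 in CA1-like nuclei (SD, n = 8). It was lowest in INH Vip/Cck-like nuclei, with 53.2 ± 9.71 CPM and a range of 34.9 to 70.7. The class with the most *Cnr1* thus had the lowest mean of *Dagla*, beside oligodendrocyte-like nuclei at 56.0 ± 32.9 CPM. When the 3 principal classes were averaged within each pool and set against the 3 INH classes, *Dagla* was 3.33-fold higher in the principal classes in 8 of 8 pools (exact permutation test, adjusted p = 0.013 over 24 comparisons of class groups). The class groups were formed after the levels had been seen, so p-values for them here and below are descriptive. The order of the 3 principal classes was less certain, since the lead of CA2/3-like over DG-like was 0.14 on the log2 scale (SD 0.11, 7 of 8 pools, exact permutation test, adjusted p = 0.20). Microglia-like nuclei had 226 ± 34.4 CPM in the 6 pools without PLX5622, where they also held neuronal RNA. The summed level of 4 neuron markers (*Syt1*, *Snap25*, *Rbfox3*, *Grin2b*) was 5019 to 6875 CPM in them in those 6 pools. Over the 8 pools this sum was 3505 to 6875 CPM in microglia-like and 6402 to 7139 CPM in DG-like nuclei. In oligodendrocyte-like nuclei it was 1331 to 2697 CPM and in astrocyte-like nuclei 2971 to 5249 CPM. The part of this RNA in the levels of the glial classes was not tested.

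*Daglb*, the second diacylglycerol lipase (chromosome 5, 143450236 to 143496130, plus strand), is known from macrophages and microglia. Its level was 60.3 ± 12.6 CPM in microglia-like nuclei over the 6 pools without PLX5622 (37.2 to 71.6 CPM). In the other 12 classes it was flat, with means between 14.8 CPM in oligodendrocyte-like and 34.9 CPM in Cajal-Retzius-like nuclei, and 26.4 to 26.8 CPM in the 3 principal classes. The gene overlaps *Rac1* on the other strand, and whether the counting used strand is not given in the sources used here, so its values are less certain than those of *Faah*, which overlaps no annotated gene. *Napepld* encodes an enzyme that releases anandamide and other N-acylethanolamines from membrane phospholipids (chromosome 5, 21867688 to 21923575, minus strand, overlapping *Armc10* on the other strand). Here the mean of *Napepld* was highest in DG-like nuclei at 50.8 ± 10.4 CPM, with 19.4 ± 4.22 in CA2/3-like and 7.19 ± 3.13 in CA1-like nuclei. Oligodendrocyte-like, *Slc17a6* excitatory-like and microglia-like nuclei had means between those of DG-like and CA2/3-like nuclei. Control pools of DG-like nuclei were at 58.6, 44.2, 52.6 and 54.8 CPM and stress pools at 44.7, 30.6, 61.0 and 59.6 CPM. Within the 10 classes, DG-like nuclei held 54.0% of *Napepld* UMIs with 31.5% of nuclei, and CA1-like nuclei held 5.50% with 25.3%. DG-like nuclei held 1453 *Napepld* UMIs, and 4155 were counted in all. The Cajal-Retzius-like class came next to DG-like in mean level (34.6 CPM), but that mean rests on 14 UMIs and ran from 0 to 184 CPM. The lead of DG-like over it was 2.52 on the log2 scale (SD 2.78, 7 of 8 pools, exact permutation test, adjusted p = 0.25). A *Napepld* UMI was seen in 1203 of 10986 DG-like and 70 of 2042 oligodendrocyte-like nuclei (3.43%), and in 2.18 and 1.245% after thinning to 500 UMIs.

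**Figure D2:**
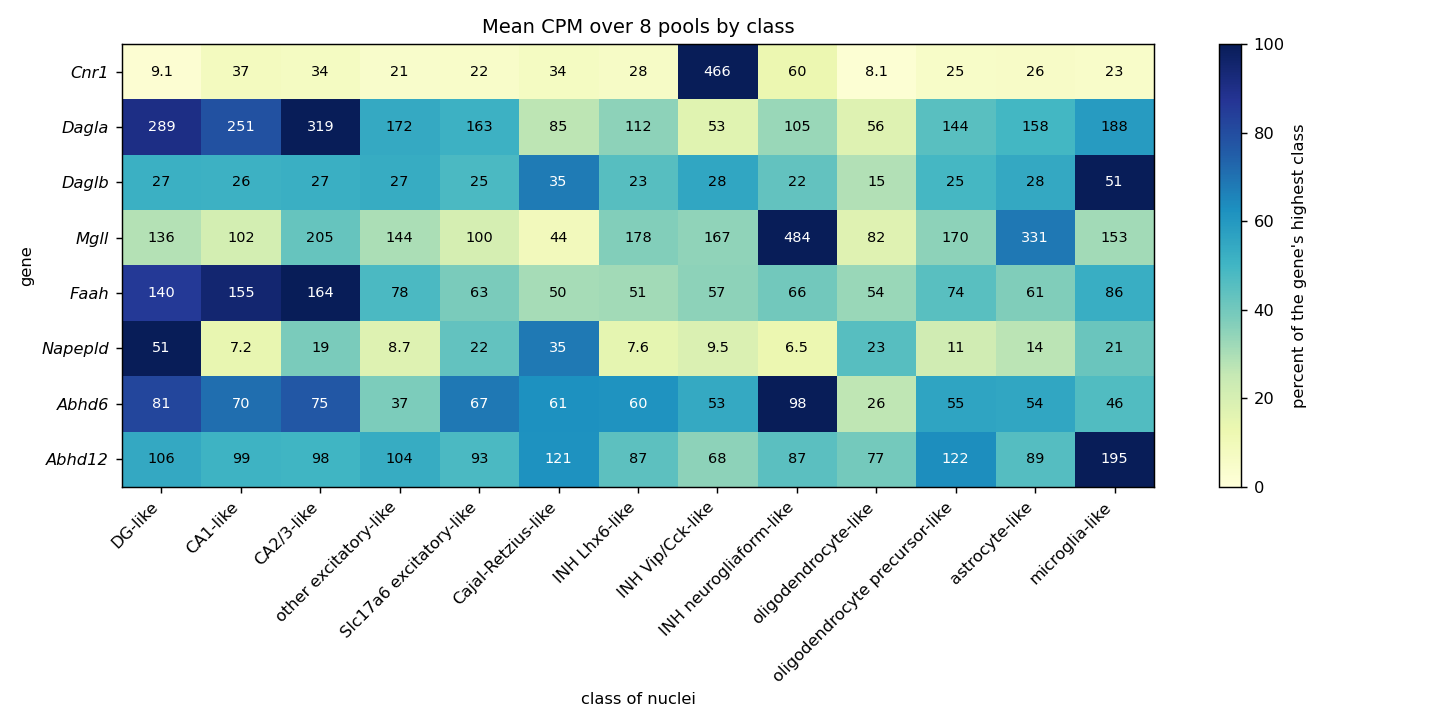
Levels of the 8 genes in 13 classes. Each cell gives the mean CPM over 8 pools, and the colour is that mean as a percent of the gene's highest class. *Cnr1* is dark in INH Vip/Cck-like only, and *Dagla* and *Faah* in the 3 principal classes. *Napepld* is dark in DG-like and Cajal-Retzius-like nuclei, and *Mgll* in INH neurogliaform-like and astrocyte-like nuclei.

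Of the enzymes that break endocannabinoids down, *Mgll* encodes monoacylglycerol lipase, which hydrolyses most 2-arachidonoylglycerol in brain (chromosome 6, 88652108 to 88805342, plus strand). It was highest in INH neurogliaform-like nuclei at 484 ± 111 CPM (SD, n = 8) and in astrocyte-like nuclei at 331 ± 86.0 CPM. The first class was above the second in 6 of 8 pools, by 0.56 on the log2 scale (exact permutation test, adjusted p = 0.23). Neurogliaform-like control pools were at 439, 372, 556 and 421 CPM and stress pools at 664, 613, 402 and 405 CPM. Astrocyte-like nuclei were above CA2/3-like nuclei (205 ± 38.1 CPM) in 8 of 8 pools, by 0.67 on the log2 scale (exact permutation test, p = 0.0078, adjusted p = 0.15). The pyramidal classes were unlike each other, with CA1-like at 102 ± 25.1 CPM. The mean of the INH classes was 1.71-fold above that of the principal classes in 8 of 8 pools (exact permutation test, adjusted p = 0.013). INH Lhx6-like (178 ± 27.0 CPM) and INH Vip/Cck-like nuclei (167 ± 34.3 CPM) had higher means than DG-like and CA1-like nuclei. Their means were lower than that of CA2/3-like nuclei, which were above INH Lhx6-like in 6 of 8 pools (exact permutation test, adjusted p = 0.30). The INH classes without the neurogliaform-like class were not compared as a group. An *Mgll* UMI was found in 56.8% of INH neurogliaform-like, 38.2% of astrocyte-like and 8.81% of oligodendrocyte-like nuclei, and in 21.3, 17.5 and 3.30% after thinning.

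*Faah* encodes fatty acid amide hydrolase, the main enzyme that ends anandamide signalling (chromosome 4, 115824342 to 115875423, minus strand). Its pattern was close to that of *Dagla*, with 164 ± 27.4 CPM in CA2/3-like, 155 ± 18.8 in CA1-like and 140 ± 24.3 in DG-like nuclei, and 51.5 to 65.8 CPM in the 3 INH classes. Principal classes were 2.68-fold above INH classes in 8 of 8 pools (exact permutation test, adjusted p = 0.013). Over the 13 classes, *Faah* and *Dagla* means correlated with r = 0.82, the largest among the 28 pairs of members; this is a description over classes that share libraries. *Abhd6* (chromosome 14, 14411450 to 14468795, minus strand) and *Abhd12* (chromosome 2, 150674408 to 150746693, minus strand) encode further hydrolases that can take 2-arachidonoylglycerol, and *Abhd12* is better known as a lysophosphatidylserine lipase. *Abhd6* was highest in INH neurogliaform-like nuclei (98.2 ± 22.3 CPM) and at 69.7 to 80.6 CPM in the principal classes, and lowest in oligodendrocyte-like nuclei (26.1 ± 13.1 CPM). *Abhd12* was found in all classes, with 67.8 CPM in INH Vip/Cck-like nuclei and 201 ± 47.0 CPM in microglia-like nuclei without the PLX5622 pools. Microglia-like nuclei were followed by oligodendrocyte precursor-like nuclei (122 ± 30.6 CPM), and the lead was 0.63 on the log2 scale over all 8 pools (7 of 8 pools, exact permutation test, adjusted p = 0.20).

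In all, 0 of 96 neighbouring pairs of classes in the 8 orders passed an adjusted p of 0.05 by the exact permutation test, and 15 had an unadjusted p under 0.05. With 96 comparisons and a smallest p of 0.0078, which 5 steps reached, a single step could hardly pass, so these adjusted values say little about the order. The 24 contrasts of class groups are fewer and are not comparable in this respect. These groups were formed after the levels had been seen, and left out microglia-like nuclei. By the same test *Abhd12* was 1.26-fold and *Napepld* 2.68-fold higher in principal than in INH classes, and *Daglb* (1.14-fold) and *Abhd6* (1.119-fold) did not pass (exact permutation tests, adjusted p = 0.013, 0.013, 0.23 and 0.14). In 9 further clusters that had no class name and were called by their leading gene, the highest mean of *Cnr1* was 44.9 CPM and the highest of *Mgll* 240 CPM. Other unnamed clusters, with the unnamed INH clusters described above among them, are not part of these 9. Of 8637 genes with a mean of at least 10 CPM, those among the 3 most like each member over the 13 class means of log2(CPM + 1) included *Necab1*, *Hdac6* and *Neb* for *Cnr1* (r = 0.82 to 0.83), *Phyhip*, *Dbn1* and *Gm2762* for *Dagla* (0.93 to 0.94), *B4galnt1*, *Cotl1* and *Ssx2ip* for *Daglb* (0.91 to 0.92), and *Gm6999* and *Cblb* for *Napepld* (0.84 to 0.85). For the hydrolases they included *Slc25a44*, *Sdhaf2* and *Fads1* for *Mgll* (0.91 to 0.93), *Cnih2*, *Arf3* and *Synj1* for *Faah* (0.92 to 0.93), *Fbxl16* and *Pdzd4* for *Abhd6* (0.87 to 0.91), and *Lrrk1*, *Dock8* and *Clint1* for *Abhd12* (0.82 to 0.83). These are among the largest of 8637 correlations over only 13 class means. Whether they exceed what such a choice gives among unrelated genes was not tested.

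The next question was whether RSD altered these genes 14 h after the last defeat. No member passed an adjusted p of 0.05 over all genes tested in any of the 10 classes (edgeR quasi-likelihood test, 4 pairs of pools, 73 tests of a member in a class). DESeq2 called 0 of the 44 tests for which it gave an adjusted p and gave none for the other 29, *Cnr1* in the principal classes among them. In 10 of the 73 tests (13.7%) the unadjusted p was under 0.05, against 10.5% of all gene tests in these classes, and by DESeq2 in 5 (6.85%, against 5.02%). The 4 smallest p-values were those of *Cnr1* and *Mgll* in the pyramidal classes, where *Cnr1* was lower and *Mgll* and *Dagla* were higher in every stress pool than in every control pool. In sums over a class, which nuclei make up the class and how much RNA each holds are mixed. In CA1-like nuclei 1 cluster held 134 of 1207 nuclei in Con-Veh and 1084 of 1476 in Stress-Veh. It held 313 of 1378 in Con-PLX and 1435 of 1583 in Stress-PLX. Differences in the largest cluster alone are given below for *Cnr1* and *Dagla*. Beyond that, the part of this make-up was not tested. Depth moved with stress in both pyramidal classes, where the stress pool of each pair held fewer UMIs per nucleus than its control pool. In CA1-like nuclei, Con-Veh held 4261068 UMIs in 1207 nuclei and Stress-Veh 2006409 in 1476. Con-PLX held 1261579 in 1378 and Stress-PLX 1190775 in 1583. Beyond the alternative with nuclei thinned to 500 UMIs, the part of depth in these differences was not tested. That alternative leaves out nuclei with fewer UMIs, and the lowest median of a pool in CA1-like nuclei was 543.

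In CA1-like nuclei, *Cnr1* was at 41.3, 57.1, 44.1 and 43.3 CPM in control pools and at 22.9, 21.0, 36.5 and 29.3 CPM in stress pools. All stress pools lay below all control pools. The difference was -0.74 on the log2 scale (SE 0.19), or a ratio of 0.60, with an adjusted p of 0.145 (edgeR). Within single pairs the counting interval of the log2 ratio lay below 0 for vehicle, PLX5622 and nIL-1R1-/- and took in 0 for IL-1R1+/+ (-0.27, 95% interval -0.65 to 0.09). The call depended on settings: with no filter on low counts, or without the IL-1R1+/+ pair, the adjusted p was 0.0096 and 0.046 (edgeR), and in the largest CA1-like cluster alone the difference was -0.43 (SE 0.16, adjusted p = 0.25). *Mgll* was at 80.0, 78.5, 88.8 and 81.6 CPM in control pools of the same class and at 138, 141, 103 and 105 CPM in stress pools. The groups did not overlap and the difference was 0.51 (SE 0.15, adjusted p = 0.160, edgeR). *Dagla* was at 235, 152, 251 and 225 CPM in control pools and at 314, 276, 274 and 280 CPM in stress pools. These also did not overlap, with the lowest control value in Con-PLX, and the difference was 0.39 (SE 0.14, adjusted p = 0.207, edgeR). In the largest cluster alone it was 0.19 (SE 0.11). For *Mgll* and for *Dagla*, the counting interval of the log2 ratio lay above 0 in 3 of 4 pairs. Thus 3 of 8 members did not overlap between conditions, against 4.78% of all genes tested in CA1-like nuclei, and the same 3 had an unadjusted p under 0.05, against 15.7% of all genes. At the adjusted threshold, 0 of 8 members and 0.00891% of genes were called in this class.

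CA2/3-like nuclei gave the same 3 genes. *Cnr1* was at 49.5, 38.3, 37.0 and 40.1 CPM in control and at 18.0, 23.2, 34.0 and 31.1 CPM in stress pools, a difference of -0.60 (SE 0.19, adjusted p = 0.146, edgeR). The counting interval of the log2 ratio lay below 0 for vehicle and nIL-1R1-/- and took in 0 for PLX5622 and IL-1R1+/+. Without the vehicle pair the difference was -0.33. With clusters built on 15 principal components the adjusted p was 0.045, and with no filter on low counts 0.042 (edgeR). *Mgll* was at 159, 165, 198 and 171 CPM in control and at 253, 215, 251 and 230 CPM in stress pools. The difference was 0.44 (SE 0.13, adjusted p = 0.116, edgeR), and in all 4 pairs the counting interval of the log2 ratio lay above 0. *Dagla* was at 286, 273, 291 and 285 CPM in control and at 385, 392, 334 and 308 CPM in stress pools, a difference of 0.28 (SE 0.13, adjusted p = 0.268, edgeR). With nuclei thinned to 500 UMIs it was 0.12 (SE 0.17). The counting interval of the log2 ratio of *Dagla* lay above 0 in 3 of 4 pairs. For these 3 of 8 members the groups did not overlap, against 5.26% of all genes tested in CA2/3-like nuclei, and their unadjusted p was under 0.05, against 16.5% of genes. At the adjusted threshold 0 of 8 members and 0.101% of genes were called. The other 5 members overlapped between conditions in both pyramidal classes, with differences of -0.17 to 0.56 in CA1-like and -0.16 to 0.10 in CA2/3-like nuclei. The 0.56 was that of *Napepld*, on 10 to 29 UMIs a pool. It was at 5.16, 11.9, 4.37 and 3.92 CPM in control and at 4.98, 8.40, 7.46 and 11.3 CPM in stress pools. Stress was thus lower in the diet pairs and higher in the genotype pairs.

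**Figure D3:**
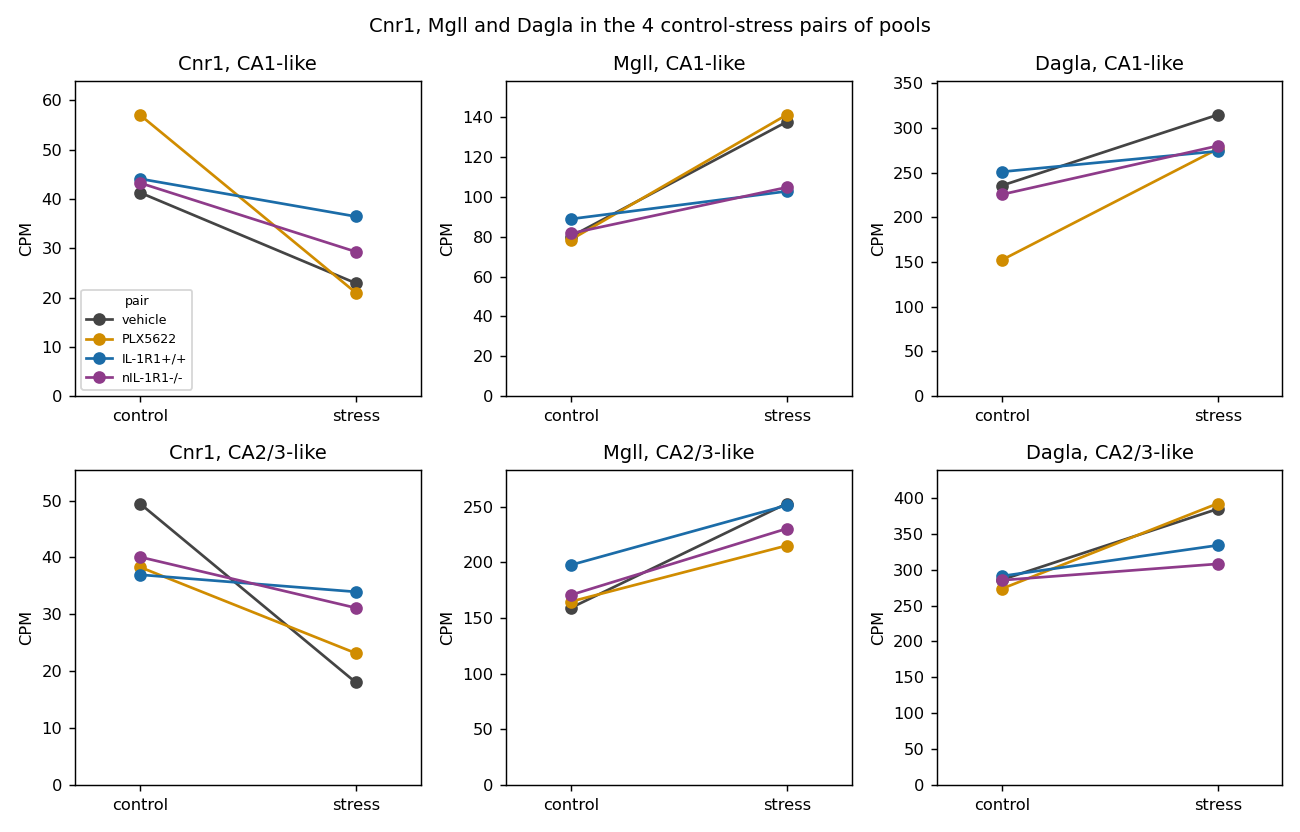
*Cnr1*, *Mgll* and *Dagla* in CA1-like (top) and CA2/3-like nuclei (bottom). Each point is the CPM of 1 pool and each line joins the control and stress pool of a pair. In all 6 panels every line goes the same way, down for *Cnr1* and up for *Mgll* and *Dagla*, and no panel holds a difference with an adjusted p under 0.05.

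Since *Cnr1* was high in INH Vip/Cck-like nuclei, markers of those cells were summed in the pyramidal classes. The 8 Vip/Cck markers together were at 11.97 to 17.6 CPM in control and 12.6 to 17.0 CPM in stress pools of CA1-like nuclei, and in CA2/3-like nuclei at 8.94 to 16.0 CPM in control and 11.5 to 19.9 CPM in stress pools, against 135 to 289 CPM in INH Vip/Cck-like nuclei. One of the 8 markers was at 0 in both pyramidal classes. In CA1-like nuclei *Cck* alone made up most of the sum in every pool, from 6.72 CPM in Stress-PLX to 17.0 CPM in Stress-IL-1R1+/+. *Vip* was at 0.793 CPM or less in these pools. Whether this *Cck* RNA came from interneurons was not tested, so the sum cannot show how much interneuron RNA CA1-like nuclei held. The 6 general INH markers were at 276 to 654 CPM in control and 272 to 606 CPM in stress pools of CA1-like nuclei. In CA2/3-like nuclei they were at 334 to 479 and 301 to 428 CPM. Control and stress overlapped in both lists, but in CA1-like nuclei the overlap of the Vip/Cck list is mainly that of *Cck*. *Gad1* and *Gad2* were each at 3.92 to 19.3 CPM in CA1-like and 3.54 to 18.2 CPM in CA2/3-like pools (4 to 69 UMIs). In CA1-like nuclei they were higher in the stress pool of each pair, except *Gad1* in nIL-1R1-/- and *Gad2* in IL-1R1+/+. In CA2/3-like nuclei the exception was *Gad1* in IL-1R1+/+. Both genes were low beside the INH sum, so its overlap cannot show how much interneuron RNA these nuclei held. The part of interneuron RNA in the *Cnr1* difference was not tested.

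In DG-like nuclei 0 of 8 members were called, against 0.0167% of genes. *Cnr1* differed by -0.42 (SE 0.24) and was lower in the stress pool of 4 of 4 pairs. It was at 8.69, 17.9, 8.02 and 8.23 CPM in control and at 8.47, 9.25, 5.35 and 6.95 CPM in stress pools. The groups overlapped, and the counting interval of the log2 ratio lay below 0 in 0 of 4 pairs. The high value in Con-PLX rests on 17 UMIs. These nuclei too were spread unevenly, with 1 of 3 clusters holding 839 of 1727 nuclei in Stress-Veh and 1233 of 1529 in Stress-PLX, against 426 of 1775 in Con-Veh and 785 of 1112 in Con-PLX, and in the largest cluster alone *Cnr1* differed by -0.45 (SE 0.30). *Mgll* differed by -0.01 (SE 0.13), with 111, 162, 139 and 133 CPM in control and 154, 136, 135 and 121 CPM in stress pools. *Dagla* was 0.16 higher (SE 0.12, adjusted p = 0.62, edgeR), with 3 of 4 pairs above their control and the nIL-1R1-/- pair below. In INH Vip/Cck-like nuclei *Cnr1*, whose pools are given above, differed by -0.27 (SE 0.13, adjusted p = 0.91, edgeR) and overlapped between conditions. *Mgll* there was lower in 4 of 4 pairs (-0.32, SE 0.15, adjusted p = 0.91). Of 7 members tested in this class 0 were called, against 0.0126% of genes. In INH Lhx6-like nuclei 0 of 8 were called, against 0.153% of genes, and differences ran from -0.17 to 0.41. In INH neurogliaform-like nuclei 0 of 6 were called, against 0.0778%. *Dagla* had its largest difference of any class there (0.51). It was at 95.0, 90.5, 72.7 and 100 CPM in control and at 155, 76.7, 109 and 143 CPM in stress pools. The PLX5622 pair went the other way, on 9 and 7 UMIs. *Mgll* there had stress pools above control in the diet experiment and below it in the genotype experiment, which left 0.12 (SE 0.17).

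In glia, 0 of 7 members were called in astrocyte-like nuclei, against 0.915% of genes. *Cnr1* had its largest difference there (-0.87, SE 0.53, adjusted p = 0.58, edgeR), with 1 of 4 pairs going the other way. *Mgll* was higher in 4 of 4 pairs there, with 241, 398, 234 and 252 CPM in control and 316, 456, 418 and 333 CPM in stress pools (0.42, SE 0.17, adjusted p = 0.32, edgeR), and the groups overlapped because of Con-PLX. It was also higher in 4 of 4 pairs in oligodendrocyte precursor-like nuclei (0.37, SE 0.19, adjusted p = 0.71), where *Daglb*, at 6 to 32 UMIs in control and 1 to 9 in stress pools, was lower in 4 of 4 (-0.78, SE 0.39, adjusted p = 0.68, edgeR). In that class 0 of 7 were called, against 0.211% of genes. In oligodendrocyte-like nuclei 0 of 6 were called, against 0.0632%, and in microglia-like nuclei 0 of 8, against 0.973%. Over the classes in which each was tested, *Mgll* and *Dagla* were higher in stress in 8 of 10 classes each, *Cnr1* lower in 8 of 9, *Abhd6* lower in 9 of 10 and *Abhd12* lower in 8 of 10, and *Daglb* higher in 6 of 8, while *Faah* (4 higher, 6 lower) and *Napepld* (4 higher, 2 lower) were mixed. Classes of a pool share their mice, so these counts are not independent.

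**Figure D4:**
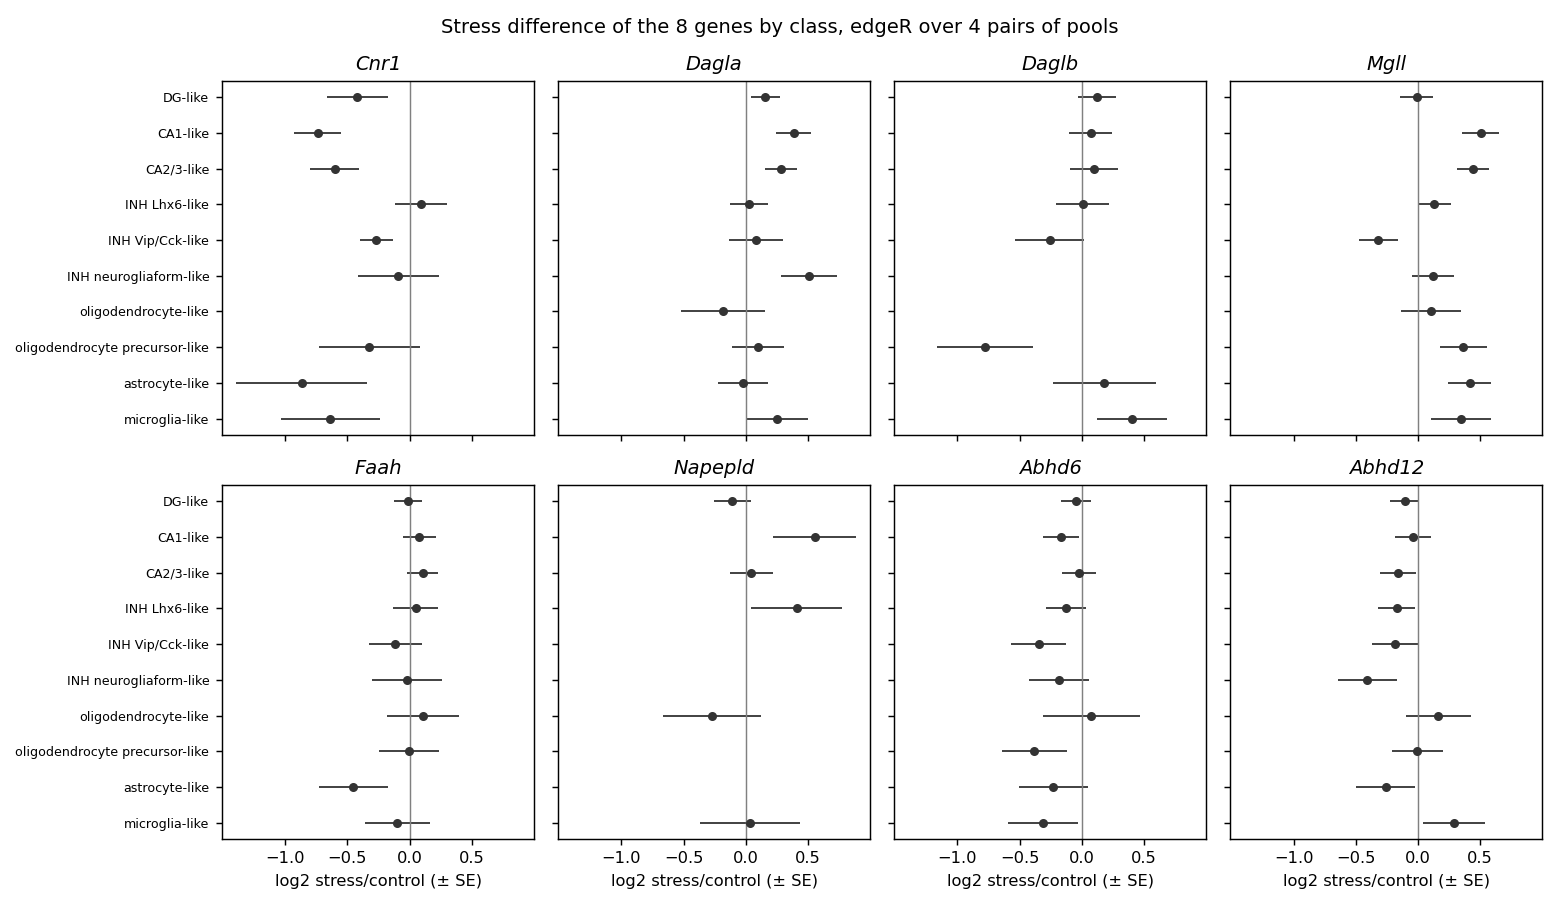
Difference between stress and control in 10 classes for the 8 genes. Points are log2 ratios from edgeR over 4 pairs of pools and bars are ± SE; a missing point was not tested because counts were low. The 5 points farthest from 0 relative to their error are *Cnr1* and *Mgll* in CA1-like and CA2/3-like nuclei and *Dagla* in CA1-like nuclei.

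Diet and genotype were compared with 2 pools on each side, in the same fits. PLX5622 gave no call among 73 tests of members (edgeR; DESeq2 called 0 of 72), against 0.147% of genes over the 10 classes. An unadjusted p under 0.05 was found in 4 of 73 (5.48%), no more than the 6.46% of all gene tests, so the 4 are given as values only. The one with the smallest p was *Cnr1* in INH Lhx6-like nuclei, at 40.2 and 50.8 CPM in the control and stress pools with PLX5622 and at 18.8 and 19.4 CPM with vehicle (1.28, SE 0.36, adjusted p = 0.42, edgeR). With clusters built on 15 principal components the difference was 0.33 (SE 0.45). *Mgll* in astrocyte-like nuclei was at 398 and 456 CPM with PLX5622 and at 241 and 316 CPM with vehicle (0.69, SE 0.24, adjusted p = 0.81). The other 2 were *Dagla* and *Abhd6* in microglia-like nuclei, where the PLX5622 pools hold 13 and 15 nuclei. Depth moved with the diet, since the PLX5622 pools had medians of 598 and 628 UMIs per nucleus and the vehicle pools 2563 and 1325.5, and its part in these values was not tested. The nIL-1R1-/- genotype gave no call (edgeR; DESeq2 called 0) against 0.0115% of genes, and 0 of 73 tests had an unadjusted p under 0.05, against 2.32% of all gene tests. Its differences in the 3 principal classes ran from -0.17 to 0.25 on the log2 scale.

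Of 36 further genes of the pathway (receptors, G proteins, phospholipases, N-acylethanolamine enzymes, carriers), 25 had enough counts in at least 1 class. With stress, 0 of 173 tests of these genes in the 10 classes passed by edgeR. The unadjusted p was under 0.05 in 21 tests by edgeR (12.1%, against 10.5% for all genes) and in 13 by DESeq2 (7.51%, against 5.02% for all genes). By edgeR, 114 of 173 differences were lower in stress, with a median of -0.13 on the log2 scale against medians over all genes of -0.01 to 0.02 in the 10 classes. The 173 tests repeat 25 genes over classes that share their mice, so they are not independent. The lowest adjusted p was 0.071. With PLX5622 and with nIL-1R1-/- 0 passed as well, with 17 (9.83%, against 6.46% of all gene tests) and 5 (2.89%, against 2.32%) at an unadjusted p under 0.05.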

How the data were processed

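Single-nucleus RNA was sequenced from 8 pools of 3 mice by split-pool barcoding in 4 sublibraries, and nuclei were assigned to pools by the deposited sample names. The authors ran the Parse Biosciences pipeline on mm39 (GRCm39) and deposited raw UMI counts per nucleus and gene; Seurat 4.1.1 is in the submitters' processing notes. Whether counting used strand or introns is not given in the sources used here. Mice within a pool cannot be separated, so the pool was the unit of replication, and p-values measure the spread between pools.

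Of 57350 nuclei, 516 with over 20% mitochondrial UMIs were left out. The pools held 5858 to 8474 nuclei and 7534594 to 58081835 UMIs. Nuclei were clustered with scanpy 1.11.5 (2000 variable genes, 30 principal components, 15 neighbours, Leiden resolution 1) without the 8 members and 36 pathway genes, and clusters were named from marker lists. The naming rule was revised after clusters, but not members, had been seen. Scrublet's automatic calls were 0 or 1 nuclei in 7 pools and 22.8% in Con-nIL-1R1-/-, so doublets were kept, and the top 6% of scores per pool were left out as an alternative.

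UMIs were summed per class and pool where a pool held at least 10 nuclei of the class. Stress, diet and genotype were tested with edgeR 4.0.16 (TMM, filterByExpr, quasi-likelihood, pair as a block, 3 residual degrees of freedom), with Benjamini-Hochberg adjustment over all genes of a class, and with DESeq2 1.42.0 as an alternative. Classes were compared within pools by exact sign flips of log2(CPM + 1). With 4 pairs such an exact permutation test cannot go below p = 0.125. Pairs were defined by diet or genotype and hold different animals. The correlation of deviations from the condition means within a pair was -0.04 to 0.31 over 40 values, 20 of them over 0.1. The tests were tried on simulated counts. All 8 members are described in every class. Genes among the 3 most similar by Pearson r are named for each, and some are not reported here. The members, gene lists and class groups were chosen with earlier results of these data known. Gene positions are from GENCODE vM39, which held 56017 of 56748 identifiers. Intervals hold counting error only.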

Additional observations from a re-analysis of the deposited data

Results flagged for a closer look

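In each class and condition, the highest and lowest of the 4 pools were compared with the rest by Dixon's ratio. A pool stood apart in 16 of 160 groups, where chance gives about 8, and 13 of the 16 were PLX5622 pools. In 11 of the 16 the value rests on fewer than 20 UMIs.

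The values that rest on most UMIs were those of *Dagla* in CA1-like nuclei, at 314 CPM in Stress-Veh against 274 to 280 in the other stress pools, and *Abhd12* in DG-like nuclei, at 85.4 CPM in Stress-PLX against 108.6 to 109.8. *Abhd6* in CA1-like nuclei was at 59.4 CPM in Con-PLX against 76.2 to 78.6, and *Mgll* in astrocyte-like nuclei at 398 CPM in Con-PLX against 234 to 252. *Dagla* in INH Vip/Cck-like nuclei was at 34.9 CPM in Con-Veh against 54.1 to 55.8, and at 70.7 CPM in Stress-PLX against 50.8 to 52.9.

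*Cnr1* was at 17.9 CPM in DG-like nuclei of Con-PLX, against 8.02 to 8.69 in the other control pools, and at 46.1 CPM in astrocyte-like nuclei of Stress-IL-1R1+/+, against 6.0 to 12.2 in the other stress pools. *Daglb* in Con-PLX was at 50.3 CPM in INH neurogliaform-like and 59.2 CPM in oligodendrocyte precursor-like nuclei. *Napepld* was at 11.9 CPM in CA1-like and 34.3 CPM in astrocyte-like nuclei of Con-PLX, and at 11.6 CPM in CA2/3-like nuclei of Stress-PLX. In microglia-like nuclei *Napepld* was at 0 in Con-PLX and 49.4 CPM in Stress-PLX, the latter from 1 UMI, and *Abhd6* was at 0 in Con-PLX.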

How the results depend on the processing

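With stress, 0 members were called, and this became 2 with no filter on low counts (*Cnr1* in CA1-like and CA2/3-like nuclei), 1 with clusters built on 15 principal components (*Cnr1* in CA2/3-like) and 0 to 1 when each pair was left out in turn (*Cnr1* in CA1-like, without the IL-1R1+/+ pair). More genes were called overall in these settings too: 0.444% of all gene tests with no filter, 0.432% with 15 principal components and 0.707% without the IL-1R1+/+ pair, against 0.222%. With PLX5622 it became 1 with 15 principal components (*Faah* in microglia-like nuclei, which rest on few nuclei there), where 0.723% of all gene tests were called, against 0.147%. Without the replicate block 0 members were called and 29 genes in place of 193. The pairs share a diet or genotype and not animals. Over all genes, DESeq2 called 214, no scaling 149 and no filter 1073. The share of calls that were higher in stress was 69.9%, and 79.2% without scaling, 57.5% by DESeq2 and 96.6% without the replicate block.

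The differences of *Cnr1*, *Mgll* and *Dagla* in CA1-like and CA2/3-like nuclei kept their direction under all 12 alternatives each, with ranges of -0.95 to -0.43, 0.42 to 0.59 and 0.19 to 0.46 in CA1-like and -1.07 to -0.33, 0.34 to 0.48 and 0.12 to 0.34 in CA2/3-like nuclei. Control and stress pools did not overlap for these genes. Alternatives that reuse the same class sums, such as leaving out a pair, could therefore hardly turn the sign. The lone alternative chosen after the data were seen is the largest cluster of a class alone. Differences near 0 turned sign: *Mgll* in INH neurogliaform-like nuclei (-0.064 to 0.36 over the pairs left out, the lowest without replicate 1), *Faah* in CA2/3-like nuclei (-0.11 when thinned), *Napepld* in DG-like nuclei (-0.26 to 0.0064 over the pairs left out, the highest without replicate 1, and 0.015 in the largest cluster) and *Abhd6* in INH neurogliaform-like nuclei (-0.31 to 0.021 over the pairs left out, the highest without replicate 4). Of the levels, the lead of CA2/3-like over DG-like for *Dagla* became -0.023 with 15 principal components, and its lead over CA1-like for *Faah* -0.051 when thinned and -0.061 with 15 principal components. Thinned, the lead of the first class was 4.96 for *Cnr1*, 5.79 for *Daglb* and 1.47 for *Abhd12*, where second classes hold few UMIs. The cause was not tested. Depth limits *Napepld*, *Daglb* and *Cnr1* most, with 4155, 6011 and 9441 UMIs in all.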
